A study of Rattus norvegicus with 6 samples.

Results

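Solute carriers are the membrane proteins that move nutrients, ions, metals, drugs and metabolites into and out of cells, and their signals were compared between endothelial cells isolated from control and from cirrhotic rat livers. The members were all probe sets with a single gene symbol that begins with Slc or Slco followed by a family number: 300 probe sets of 240 genes in 49 families, out of 10411 genes with a symbol of their own on the Affymetrix rat 230A array. There were 6 arrays, 3 of liver endothelial cells from control Wistar rats and 3 of the same cells from adult male Wistar rats that had gone through a protocol to induce cirrhosis. The labels give neither the inducing agent nor its duration, nor the sex and age of the control rats, nor how many rats supplied 1 array, and the p-values therefore cover only the spread among the arrays, which may be partly technical. In both groups cells were freed by collagenase perfusion of the liver, enriched by isopycnic centrifugation and captured on magnetic beads bearing antibodies whose target is not given in the sources used here. The measurements are thus of bulk RNA, in which fewer cells of a type and less RNA per cell cannot be told apart. Arrays are numbered as in their titles, without any order, and the control array whose title carries no number is called control array 1.

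Carriers of this kind work by exchange, by cotransport with sodium, protons or chloride, or by facilitated diffusion, and many of them draw on the sodium gradient that the sodium pump maintains. Endothelial cells take up arginine, glucose, lactate, metals and prostaglandins through members of this group. Hepatocytes, the neighbouring cells of the sinusoid, carry their own set for bile acids, organic anions and fatty acids. Several amino acid exchangers are pairs of a light subunit that transports and a heavy subunit that brings it to the cell surface, so a single transporter can depend on a pair of genes. Slc7a6os and Slc4a1ap fall under the rule for symbols, but are named for a neighbouring gene or a binding partner and are not themselves carriers.

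Signals are the authors' linear intensities. Differences are cirrhotic minus control on the log2(signal + 16) scale, with 3 arrays per group, and a gene was called higher or lower at a Benjamini-Hochberg adjusted p under 0.05 in limma over 9519 probe sets. Each gene is represented by its brightest tested probe set unless stated. Of the 240 genes, 142 had a probe set bright enough for the test (59.2%, against 68.7% of all genes), 79 were dim, with a mean signal under 100 over the 6 arrays, and 19 lay between that limit and the test's filter at a signal of about 127. Of the 142 tested genes, 41 were called, or 28.9%, where 25.5% of all 7148 tested genes were. By direction, 16 genes were higher in the cirrhotic cells (11.3%, against 12.7% of all genes) and 25 were lower (17.6%, against 12.7%). Groups did not overlap for 69 of the 142 (48.6%, against 45.2% of all genes), 32 of them with all cirrhotic arrays above the control arrays and 37 with all below. The corresponding shares of all genes were 22.0% and 23.3%. A gene bright in 1 group only could pass the filter through that group. All 3 arrays of the dimmer group lay under the filter signal for 2 genes called higher, Slc8a1 and Slc7a6, and 2 called lower, Slc6a20a and Slc52a3. The filter itself applied to the mean log2 value over all arrays. That mean, taken over the dimmer group alone, also lay under the filter for other called genes, among them Slc38a4, Slc2a8 and Slc2a13. The shares called lay near the background over all genes, and the median difference was -0.04 for the members and -0.00 for all genes. The size of the difference, without its sign, had a median of 0.38 among the members and 0.31 over all genes.

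The marker lists moved with the groups. All 7 tested markers of sinusoidal endothelium fell, with a summed signal of 40376 to 45802 on the control arrays and 17670 to 21503 on the cirrhotic arrays, and so did all 7 general endothelial markers (27886 to 28606 and 12950 to 14747). Part of the markers of other liver cells rose. Of 8 tested stellate cell and myofibroblast markers 7 rose (summed signal of all 10 markers on the array 1623 to 3027 and 13318 to 23866), and of 8 tested cholangiocyte markers 7 rose (all 9 on the array, 771 to 1540 and 5241 to 13475). Of 11 hepatocyte markers 6 rose (31744 to 42187 and 38512 to 72074), and 2 of 9 markers of Kupffer cells and macrophages rose while 1 fell (4195 to 8074 and 5591 to 12020). No marker of these lists was at 0 on all arrays. Cirrhotic array 3 held the highest cirrhotic signal of all 11 hepatocyte markers and the lowest of all 9 cholangiocyte and all 9 macrophage markers. The part of these markers in the results that follow was not tested. For scale, the endothelial markers fell by between 0.75 and 1.64 on the log2 scale. Slc39a8, Slc12a5 and Slc6a20a fell by more than any of them, while 11 of the 25 members called lower fell by less than any of them.

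**Figure D1:**
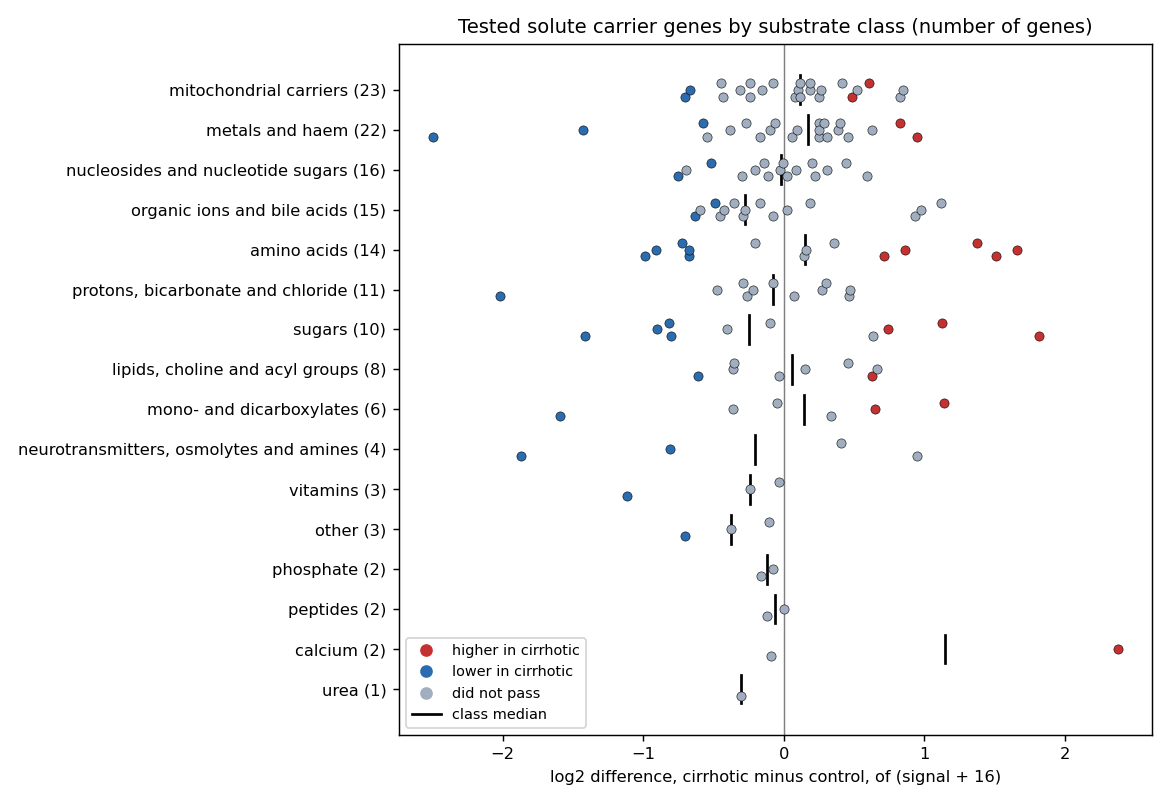
Log2 difference (cirrhotic minus control, horizontal axis) of the 142 tested solute carrier genes, 1 point per gene, grouped by substrate class with the number of genes in brackets. Red points are genes called higher, blue points genes called lower, grey points genes that did not pass, and black bars class medians. The sugar and amino acid classes hold called genes on both sides of 0, and all but 4 of the 23 mitochondrial carriers are grey.

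The counts by substrate class stand beside the 25.5% called over all tested genes. In the amino acid class 10 of 14 tested genes passed (5 higher, 5 lower). The 14 and the 5 lower both count Slc7a6os, which is no carrier. Among carriers of sugars 7 of 10 passed (3 higher, 4 lower). Of 23 mitochondrial carriers 4 passed (2 higher, 2 lower), of 22 carriers of metals and haem 5 (2 higher, 3 lower), and of 16 carriers of nucleosides and nucleotide sugars 2, both lower. No gene of the organic ion and bile acid carriers was called higher in limma, 2 being higher at an unadjusted p under 0.05, and 2 of 15 were called lower. Differences between the classes were not tested.

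**Figure D2:**
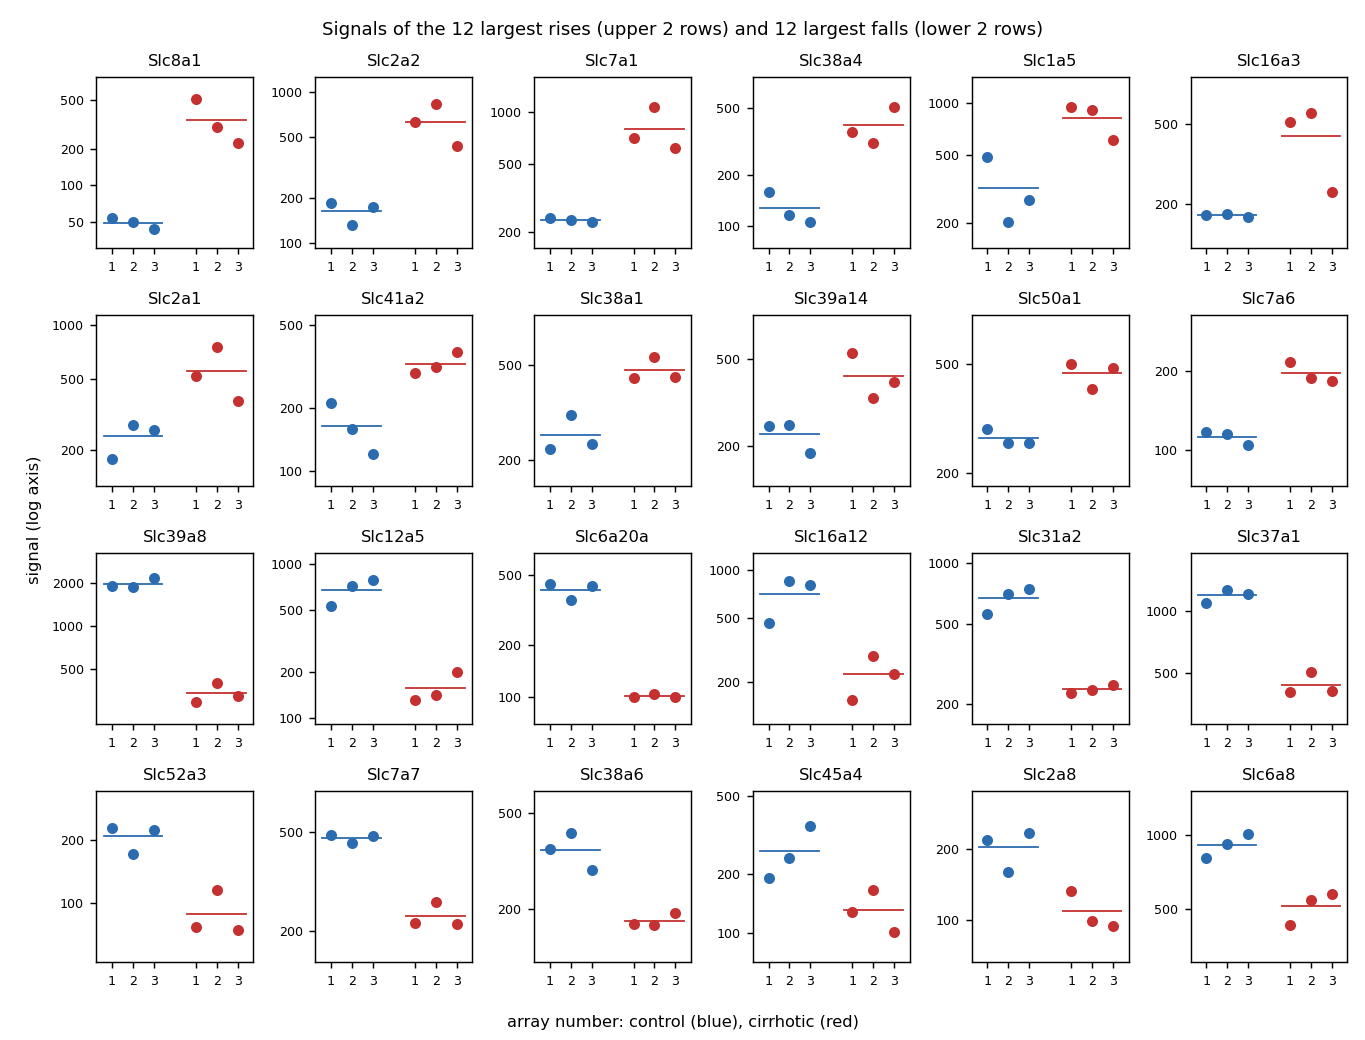
Signal on each array (log axis) of the 12 genes with the largest rises and the 12 with the largest falls among the called members. Blue points are control arrays 1 to 3, red points cirrhotic arrays 1 to 3, and lines are group means. The groups are apart in every panel, and the spread within the cirrhotic group is wide for Slc16a3, whose array 3 read 229 against 512 and 571.

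The amino acid carriers included members that rose and members that fell within the same families. Slc7a1, the cationic amino acid transporter that brings arginine into endothelial cells, read 242, 235 and 231 on the control arrays and 713, 1069 and 624 on the cirrhotic arrays. The 3 control arrays differed little and every cirrhotic array lay above them (log2 difference 1.66, SE 0.20, adjusted p = 0.00136). Another probe set of Slc7a1, a dim one, did not pass (log2 difference 0.22, adjusted p = 0.46 without the filter). Slc38a4, a sodium-coupled carrier of neutral amino acids known from the liver, read 159.7, 117 and 105 on the control arrays and 364, 312 and 512 on the cirrhotic arrays. It rose on every cirrhotic array and most on array 3, the one with the highest hepatocyte markers (log2 difference 1.51, SE 0.22, adjusted p = 0.00303). Slc38a1, a sodium-coupled glutamine carrier, read 223, 309 and 235 on the control arrays and 443, 541 and 445 on the cirrhotic arrays, and the groups did not overlap (log2 difference 0.87, SE 0.16, adjusted p = 0.00784). Its probe sets under the filter differed by 0.73 and 0.32 and did not pass (adjusted p = 0.213 and 0.539 without the filter). Slc1a5, the exchanger that takes up glutamine and other neutral amino acids, read 486, 204 and 272 on the control arrays and 942, 914 and 607 on the cirrhotic arrays. Its control arrays spread widely, and the lowest cirrhotic array lay above the highest control array (log2 difference 1.38, SE 0.31, adjusted p = 0.0154). The Slc1a5 call did not hold without control array 3 (adjusted p = 0.0638) or without cirrhotic array 1 (adjusted p = 0.0647).

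The promoters of the members that rose are shown for Slc7a1 and Slc38a1 because both hold a match to TGATGNAA, the form of the amino acid response element searched for, a sequence known to bind ATF4 in amino acid shortage. The windows run 300 bases, from 250 before to 50 after the gene start, in RefSeq annotation of GRCr8, printed 5′ to 3′ along the gene, with the match in capitals.
Slc7a1, chr12:11664238-11664537, plus strand: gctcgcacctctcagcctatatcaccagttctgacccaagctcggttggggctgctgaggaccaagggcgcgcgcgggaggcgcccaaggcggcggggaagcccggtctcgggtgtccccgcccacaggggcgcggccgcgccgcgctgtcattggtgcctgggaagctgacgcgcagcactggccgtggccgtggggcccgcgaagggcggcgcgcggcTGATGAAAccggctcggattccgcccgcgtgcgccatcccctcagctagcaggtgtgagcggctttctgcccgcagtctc
Slc38a1, chr7:129681352-129681651, minus strand: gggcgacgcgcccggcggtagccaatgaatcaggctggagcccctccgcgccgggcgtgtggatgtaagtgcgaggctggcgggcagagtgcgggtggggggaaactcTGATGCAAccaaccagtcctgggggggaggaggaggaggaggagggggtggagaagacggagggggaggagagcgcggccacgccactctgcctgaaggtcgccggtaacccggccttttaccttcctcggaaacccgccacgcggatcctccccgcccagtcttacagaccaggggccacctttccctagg
The match began 30 bases before the gene start in Slc7a1 and 142 bases before it in Slc38a1. Both strands were searched. The motif occurred in 3.98% of all 33469 promoter windows, in 2 of 14 windows of members called higher (14.3%), in 0 of 22 of members called lower and in 3 of 85 of members that did not pass (3.53%). A match describes the letters only, and no binding was measured. Of the 240 members 204 had a window, 121 of them tested genes.

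Among the exchangers with light subunits, Slc7a6 and Slc7a7 went opposite ways. Both encode light subunits that pair with the heavy subunit Slc3a2 and exchange cationic for neutral amino acids. Slc7a7 read 486, 451 and 482 on the control arrays and 216, 263 and 214 on the cirrhotic arrays, and all cirrhotic arrays were lower (log2 difference -0.99, SE 0.13, adjusted p = 0.00204). Slc7a6 read 118, 116 and 104 on the control arrays and 217, 188 and 182 on the cirrhotic arrays, and all cirrhotic arrays were higher (log2 difference 0.72, SE 0.16, adjusted p = 0.0135). The Slc7a6 call did not hold without cirrhotic array 1 (adjusted p = 0.0715). The heavy subunit Slc3a2 read 2493, 2417 and 2807 on the control arrays and 1571, 1919 and 1370.4 on the cirrhotic arrays. It was lower on every cirrhotic array (log2 difference -0.67, SE 0.15, adjusted p = 0.0144). The Slc3a2 call did not hold without control array 3 (adjusted p = 0.0648) or without cirrhotic array 1 (adjusted p = 0.0546). Slc7a5, another light subunit, which carries large neutral amino acids, read 689, 259 and 448 on the control arrays and 326, 695 and 495 on the cirrhotic arrays. Its groups overlapped (log2 difference 0.16, SE 0.37, adjusted p = 0.792).

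Of the SLC38 family, whose members move glutamine and small neutral amino acids, all 7 were tested, with 2 called higher and 2 lower. Slc38a6 read 354, 412 and 290.4 on the control arrays and 172, 170.4 and 193 on the cirrhotic arrays, all cirrhotic arrays being lower (log2 difference -0.91, SE 0.16, adjusted p = 0.00609). Slc38a10 read 1191, 1052 and 1236 on the control arrays and 713, 747 and 694 on the cirrhotic arrays, again with no overlap (log2 difference -0.68, SE 0.12, adjusted p = 0.00698). The differences of Slc38a2, a sodium-coupled carrier of small neutral amino acids, Slc38a3, a liver glutamine carrier, and Slc38a5 were 0.14, 0.36 and -0.20, none past the threshold and all with overlapping groups. Slc7a6os, which is no carrier, was also called lower (log2 difference -0.73, SE 0.15, adjusted p = 0.0123). The Slc7a6os call did not hold without cirrhotic array 1 (adjusted p = 0.0536). Slc7a11 and Slc1a4 were not analysed here, for want of a probe set with their symbol alone.

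The 4 tested members of the glucose transporter family SLC2 all passed, 2 higher and 2 lower, and other sugar carriers also went both ways. Slc2a2, the low-affinity glucose transporter best known from hepatocytes and pancreatic beta cells, read 185, 133 and 173 on the control arrays and 627, 832 and 439.6 on the cirrhotic arrays. All cirrhotic arrays lay above all control arrays, array 2 highest and array 3 lowest (log2 difference 1.82, SE 0.24, adjusted p = 0.00187). Slc2a1, the glucose transporter of many cell types including endothelium, read 178, 275 and 258 on the control arrays and 519, 757 and 376 on the cirrhotic arrays. It rose without overlap (log2 difference 1.13, SE 0.27, adjusted p = 0.0185). The Slc2a1 call did not hold without control array 1 or 3 or cirrhotic array 1, left out singly (adjusted p from 0.0522 to 0.0621). Slc50a1, a sugar carrier of internal membranes, read 289.6, 259 and 257 on the control arrays and 499, 404 and 482 on the cirrhotic arrays, the groups being clearly apart (log2 difference 0.74, SE 0.14, adjusted p = 0.00698). Slc37a1, an exchanger of glucose 6-phosphate for phosphate, read 1093, 1271 and 1209.6 on the control arrays and 403, 505 and 409 on the cirrhotic arrays. It showed the largest fall of the sugar carriers, on every cirrhotic array (log2 difference -1.41, SE 0.14, adjusted p = 0.00079). Its relative Slc37a4, the glucose 6-phosphate carrier of the endoplasmic reticulum, had overlapping groups (log2 difference -0.09, SE 0.14, adjusted p = 0.656).

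The falls in this family were those of Slc2a8 and Slc2a13. Slc2a8, a glucose transporter of internal membranes, read 218, 161 and 235 on the control arrays and 133, 99.1 and 94.3 on the cirrhotic arrays (log2 difference -0.82, SE 0.21, adjusted p = 0.0238). The Slc2a8 call did not hold without control array 1 or 3 or cirrhotic array 2 or 3, left out singly (adjusted p from 0.0518 to 0.0866). Slc2a13, a proton-coupled inositol transporter, read 157, 251 and 225 on the control arrays and 116, 84.3 and 142 on the cirrhotic arrays (log2 difference -0.80, SE 0.24, adjusted p = 0.0425). The Slc2a13 call did not hold without control array 2 or 3 or cirrhotic array 1 or 2, left out singly (adjusted p from 0.096 to 0.126). The cirrhotic and control arrays of both genes did not overlap. Slc45a4 also fell (log2 difference -0.90, SE 0.25, adjusted p = 0.0355). The Slc45a4 call did not hold without control array 2 or 3 or cirrhotic array 1 or 3, left out singly (adjusted p from 0.075 to 0.109). Slc45a3 of the same family read 136, 195 and 128 on the control arrays and 291, 204 and 240.0 on the cirrhotic arrays; it did not pass with all arrays (log2 difference 0.63, SE 0.20, adjusted p = 0.0554). Slc45a3 passed without control array 2 (log2 difference 0.80, adjusted p = 0.0318) and without cirrhotic array 2 (log2 difference 0.75, adjusted p = 0.0473).

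Of 5 tested members of the monocarboxylate transporter family SLC16, 2 rose and 1 fell. Slc16a3, a monocarboxylate transporter known for lactate export, read 176, 178 and 172 on the control arrays and 512, 571 and 229 on the cirrhotic arrays. Cirrhotic arrays 1 and 2 stood far above the controls and array 3 only a little (log2 difference 1.14, SE 0.31, adjusted p = 0.03). The Slc16a3 call did not hold without control array 1, 2 or 3 or cirrhotic array 1 or 2, left out singly (adjusted p from 0.068 to 0.111). Without cirrhotic array 3 its difference was 1.54 (adjusted p = 0.000642). Slc16a1, the widespread lactate and pyruvate transporter, read 315, 312 and 397 on the control arrays and 516, 683 and 449 on the cirrhotic arrays, also without overlap (log2 difference 0.65, SE 0.18, adjusted p = 0.0362). The Slc16a1 call did not hold without control array 1, 2 or 3 or cirrhotic array 1 or 2, left out singly (adjusted p from 0.0544 to 0.11). The chaperone of both, Bsg, read 1430.2, 1464 and 1535 on the control arrays and 2041, 1757 and 1991 on the cirrhotic arrays. It was higher on every cirrhotic array (log2 difference 0.38, SE 0.12, adjusted p = 0.0454). The Bsg call did not hold without control array 1, 2 or 3 or cirrhotic array 1 or 3, left out singly (adjusted p from 0.0784 to 0.144). Slc16a12, a member of the same family that carries creatine, read 466, 854 and 810.2 on the control arrays and 155, 291 and 225 on the cirrhotic arrays. Every cirrhotic array was lower (log2 difference -1.59, SE 0.28, adjusted p = 0.00648). A second tested probe set of Slc16a12 had a difference of -0.80 and did not pass (adjusted p = 0.0723). The differences of Slc16a6 and of Slc16a7, a pyruvate and lactate carrier, 0.34 and -0.36, did not pass, and their groups overlapped.

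The windows of Slc2a1 and Slc16a1 are shown as examples from the 4 members called higher whose windows hold ACGTG, the core letters of the hypoxia response element. The windows of Slc7a6 and Slc41a2, also called higher, hold it too and are not shown. Slc31a2, Slc25a33, Slc6a20a, Slc28a2, Slc17a5 and Slc37a1, all called lower, likewise hold it. Matches are given in capitals on whichever strand they lie. Coordinates, window and direction are as above.
Slc2a1, chr5:138002272-138002571, plus strand: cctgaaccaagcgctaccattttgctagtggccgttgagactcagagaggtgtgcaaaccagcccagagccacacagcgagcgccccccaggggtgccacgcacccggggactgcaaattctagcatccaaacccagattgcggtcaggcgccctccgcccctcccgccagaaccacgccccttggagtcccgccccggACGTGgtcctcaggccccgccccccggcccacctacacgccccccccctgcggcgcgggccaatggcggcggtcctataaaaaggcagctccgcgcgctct
Slc16a1, chr2:194812410-194812709, plus strand: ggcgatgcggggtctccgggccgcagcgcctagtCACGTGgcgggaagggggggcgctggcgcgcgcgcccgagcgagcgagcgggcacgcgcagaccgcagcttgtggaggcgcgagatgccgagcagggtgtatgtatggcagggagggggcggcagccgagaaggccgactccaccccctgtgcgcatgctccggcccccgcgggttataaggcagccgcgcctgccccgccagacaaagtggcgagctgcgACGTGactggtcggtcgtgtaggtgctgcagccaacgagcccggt
The match in Slc2a1 began 51 bases before the gene start, and the 3 matches in Slc16a1 began 216 and 215 bases before it, overlapping on opposite strands, and at base 6 after it. These letters are common. ACGTG was found in 19.3% of all windows, in 4 of 14 of members called higher (28.6%), in 6 of 22 of members called lower (27.3%) and in 27 of 85 that did not pass (31.8%). The share among members called higher was thus close to that among the other members.

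Carriers of metals included the largest fall of all tested members. Slc39a8, an importer of zinc and manganese, read 1929, 1869 and 2164 on the control arrays and 295, 404 and 326 on the cirrhotic arrays. No cirrhotic array came near the control range (log2 difference -2.50, SE 0.15, adjusted p = 0.000355). Slc39a14, a close relative, which imports zinc, manganese and iron that is not bound to transferrin, read 246, 248 and 186 on the control arrays and 532, 331 and 395 on the cirrhotic arrays. It rose on all cirrhotic arrays, most on array 1 (log2 difference 0.83, SE 0.20, adjusted p = 0.0206). The Slc39a14 call did not hold without control array 3 (adjusted p = 0.079) or without cirrhotic array 1 (adjusted p = 0.0691). Slc39a1, a zinc importer of the plasma membrane, read 2438, 2494 and 1813 on the control arrays and 1647, 1639 and 1218 on the cirrhotic arrays, and lay just past the threshold (log2 difference -0.58, SE 0.18, adjusted p = 0.0479). The Slc39a1 call did not hold without control array 1 or 2 or cirrhotic array 1, 2 or 3, left out singly (adjusted p from 0.0535 to 0.143). Of the 8 tested members of this zinc importer family, 6 had groups that did not overlap, where 45.2% of all tested genes did not. Slc39a4, the zinc importer of the intestine, read above the controls on all 3 cirrhotic arrays without passing (log2 difference 0.63, SE 0.21, adjusted p = 0.0597). Slc39a4 passed without control array 2 (log2 difference 0.78, adjusted p = 0.0483). The differences of Slc39a11 and Slc39a13, 0.46 and 0.25, did not pass, and those of Slc39a7 and Slc39a10, 0.10 and 0.31, came with overlapping groups.

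**Figure D3:**
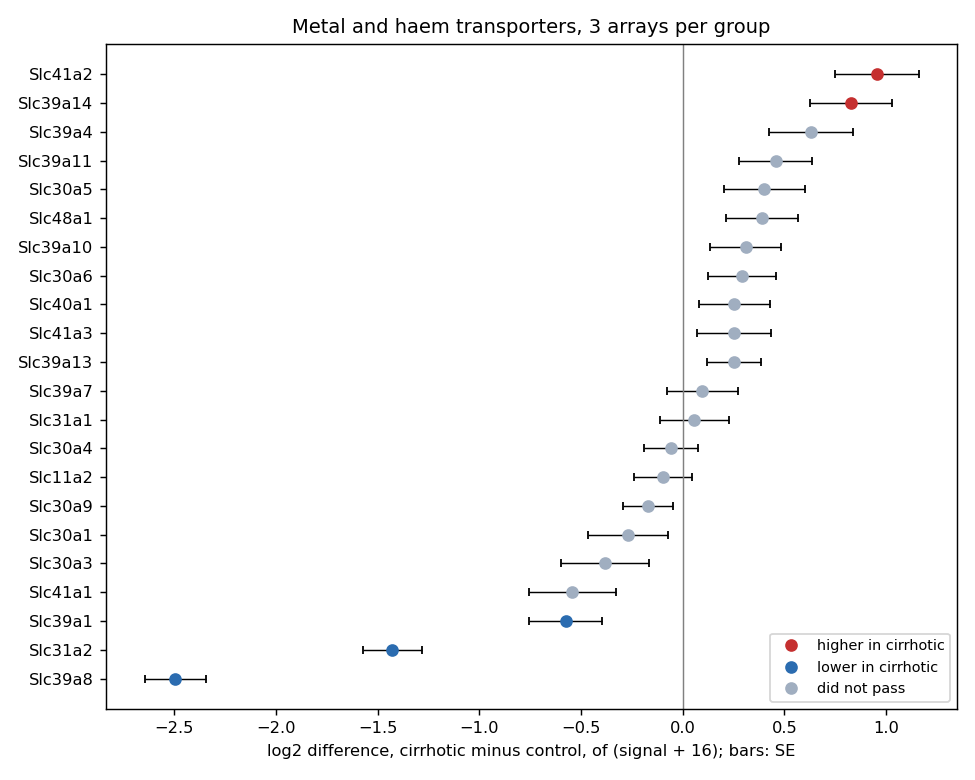
Log2 difference (cirrhotic minus control, horizontal axis) of the 22 tested carriers of metals and haem, ordered by size, with bars for the SE and 3 arrays per group. Slc39a8 at -2.50 and Slc31a2 at -1.43 stand apart from the other 20, which lie between -0.58 and 0.95.

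Copper, magnesium and iron carriers differed among themselves. Slc31a2, a relative of the copper importer found on internal membranes, read 562, 700.2 and 746 on the control arrays and 227, 235 and 249 on the cirrhotic arrays. All cirrhotic arrays were lower and close together (log2 difference -1.43, SE 0.14, adjusted p = 0.000791). Slc31a1, the copper importer of the plasma membrane, read 562, 603 and 655 on the control arrays and 642, 509 and 765 on the cirrhotic arrays, with overlapping groups (log2 difference 0.06, SE 0.17, adjusted p = 0.836). Slc41a2, a magnesium carrier, read 212, 159.7 and 121 on the control arrays and 294, 315 and 372 on the cirrhotic arrays, and rose (log2 difference 0.95, SE 0.21, adjusted p = 0.0136). Slc41a1, the magnesium and sodium exchanger of the plasma membrane, had overlapping groups (log2 difference -0.54, SE 0.21, adjusted p = 0.099). Slc41a1 passed without cirrhotic array 2 (log2 difference -0.71, adjusted p = 0.0457). Slc40a1, the iron exporter ferroportin, read 535, 613 and 474 on the control arrays and 704, 518 and 732 on the cirrhotic arrays, and its groups overlapped (log2 difference 0.25, SE 0.17, adjusted p = 0.315). Slc11a2, the proton-coupled iron importer, read 237, 289 and 238 on the control arrays and 219.8, 232 and 257 on the cirrhotic arrays, and overlapped too (log2 difference -0.10, SE 0.14, adjusted p = 0.651). None of the 6 tested zinc exporters of the SLC30 family was called in limma, with 0 at an unadjusted p under 0.05, among them Slc30a1 of the plasma membrane (log2 difference -0.27, SE 0.20, adjusted p = 0.347). The haem carrier Slc48a1 had a difference of 0.39 (adjusted p = 0.144). Slc11a1 was not analysed here.

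The calcium carrier Slc8a1 had the largest fitted rise among the tested members, and it passed the filter only through its cirrhotic arrays. Slc8a1, the sodium and calcium exchanger of excitable and smooth muscle cells, read 54.5, 50.3 and 43.9 on the control arrays and 509.9, 302 and 222 on the cirrhotic arrays. The control arrays read just above the highest bacterial control probe set of each array, and all cirrhotic arrays were several times higher (log2 difference 2.38, SE 0.29, adjusted p = 0.00137). Another probe set of Slc8a1, a dim one, did not pass (log2 difference 0.26, adjusted p = 0.368 without the filter). Array 1, the highest for Slc8a1, also held the highest sum of stellate cell and myofibroblast markers, 23866, against 13318 and 17677 on cirrhotic arrays 2 and 3. It likewise held the highest cirrhotic sums of cholangiocyte markers (13475, against 12505 and 5241) and macrophage markers (12020, against 10051 and 5591). The part of these markers in the Slc8a1 values was not tested. The mitochondrial exchanger Slc8b1 differed by -0.09 with overlapping groups (adjusted p = 0.625).

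Of 11 tested genes in the class of protons, bicarbonate and chloride, which counts the non-carrier Slc4a1ap, 1 passed. Slc12a5, a potassium and chloride cotransporter best known from neurons, read 536, 722 and 784 on the control arrays and 130.4, 140.4 and 199 on the cirrhotic arrays. It fell on every cirrhotic array (log2 difference -2.02, SE 0.20, adjusted p = 0.000791). Slc12a4, a cotransporter of the same ions in many cells, read 229, 327 and 233 on the control arrays and 175, 169 and 206 on the cirrhotic arrays, did not overlap and did not pass (log2 difference -0.47, SE 0.18, adjusted p = 0.0867). Slc12a2, the sodium, potassium and chloride cotransporter, read 464, 428 and 392 on the control arrays and 605, 829 and 421 on the cirrhotic arrays. Arrays 1 and 2 lay above the controls and array 3 within them (log2 difference 0.47, SE 0.23, adjusted p = 0.174). Slc12a2 passed without cirrhotic array 3 (log2 difference 0.71, adjusted p = 0.0234). Slc12a7, a potassium and chloride cotransporter, and Slc4a7, a bicarbonate cotransporter, had the same order, cirrhotic arrays 1 and 2 above all controls and array 3 not, in Slc12a7 (log2 difference 0.27, SE 0.20, adjusted p = 0.342) and in Slc4a7 (log2 difference 0.48, SE 0.20, adjusted p = 0.115). Slc12a7 passed without cirrhotic array 3 (log2 difference 0.49, adjusted p = 0.0368). Slc4a7 passed without cirrhotic array 3 (log2 difference 0.64, adjusted p = 0.0377). Slc4a2, the anion exchanger that cholangiocytes and many other cells use for bicarbonate, read 531, 478 and 494 on the control arrays and 430.0, 433 and 384 on the cirrhotic arrays, slightly lower on every cirrhotic array without passing (log2 difference -0.26, SE 0.12, adjusted p = 0.154). Slc9a8, a sodium and proton exchanger of the Golgi, had a difference of -0.29, also without overlap and without passing (adjusted p = 0.124).

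Among carriers of neurotransmitters, osmolytes and amines 2 of 4 tested genes fell and none was called higher, with 0 higher at an unadjusted p under 0.05 in limma. Slc6a20a, a carrier of proline and other imino acids, read 446, 361 and 433 on the control arrays and 100.2, 104 and 99.8 on the cirrhotic arrays. The cirrhotic arrays were nearly equal and far under the controls (log2 difference -1.87, SE 0.14, adjusted p = 0.000442). Slc6a8, the creatine transporter of the plasma membrane, read 804, 924 and 1011 on the control arrays and 429.9, 542 and 572 on the cirrhotic arrays, lower without overlap (log2 difference -0.81, SE 0.16, adjusted p = 0.00888). Slc6a8 and Slc16a12, both carriers of creatine, were thus both lower. Slc6a6, the taurine transporter, read 177, 244 and 99.6 on the control arrays and 466, 499 and 153 on the cirrhotic arrays. Cirrhotic arrays 1 and 2 were above all controls and array 3 was inside their range, so the difference did not pass (log2 difference 0.95, SE 0.46, adjusted p = 0.164). Slc6a6 passed without cirrhotic array 3 (log2 difference 1.47, adjusted p = 0.0135). Another probe set of Slc6a6, under the filter, had a difference of 0.76 and did not pass (adjusted p = 0.08 without the filter). Of the vitamin carriers, Slc52a3, a riboflavin transporter, read 229.7, 173 and 225 on the control arrays and 76.8, 116 and 74.0 on the cirrhotic arrays. It fell on all cirrhotic arrays (log2 difference -1.11, SE 0.21, adjusted p = 0.00835). The riboflavin transporter Slc52a2 read 182, 212 and 172 on the control arrays and 179, 205 and 169 on the cirrhotic arrays, with overlapping groups (log2 difference -0.03, SE 0.15, adjusted p = 0.904). Slc23a2, the vitamin C transporter, had a difference of -0.24 (adjusted p = 0.271).

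Nucleoside and nucleotide sugar carriers had a median difference of -0.02, and 2 of 16 tested genes fell. Slc29a1, the equilibrative nucleoside transporter that takes up adenosine, read 685, 404 and 587 on the control arrays and 306, 289 and 411 on the cirrhotic arrays. Its lowest control array lay within the cirrhotic range, and it missed the threshold (log2 difference -0.69, SE 0.22, adjusted p = 0.053). Slc29a1 passed without control array 2 (log2 difference -0.91, adjusted p = 0.0238) and without cirrhotic array 3 (log2 difference -0.84, adjusted p = 0.0299). Slc28a2, the sodium-coupled purine nucleoside transporter, read 1290.1, 1036 and 1041 on the control arrays and 850.3, 721 and 755 on the cirrhotic arrays, lower without overlap (log2 difference -0.52, SE 0.14, adjusted p = 0.032). The Slc28a2 call held in none of the 6 fits that left out 1 array (adjusted p from 0.0544 to 0.113). Slc35f6 read 329, 271 and 263 on the control arrays and 143, 147 and 205 on the cirrhotic arrays and was lower (log2 difference -0.75, SE 0.18, adjusted p = 0.019). The Slc35f6 call did not hold without control array 1 (adjusted p = 0.0722) or without cirrhotic array 1 (adjusted p = 0.0749). The remaining tested members of the SLC35 family, carriers of nucleotide sugars into the Golgi and endoplasmic reticulum, had differences from -0.30 to 0.59, and 0 of those 11 passed in limma, 1 of them with an unadjusted p under 0.05. Slc35e3 came nearest (log2 difference 0.59, SE 0.20, adjusted p = 0.0673). Slc35e3 passed without cirrhotic array 3 (log2 difference 0.73, adjusted p = 0.0404).

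Of the carriers of lipids, choline and acyl groups 2 of 8 passed, the choline carriers Slc44a1 and Slc44a2, in opposite directions. Slc44a1 read 382, 369 and 380.2 on the control arrays and 746, 593 and 469.6 on the cirrhotic arrays (log2 difference 0.63, SE 0.18, adjusted p = 0.0339). The Slc44a1 call did not hold without control array 1, 2 or 3 or cirrhotic array 1 or 2, left out singly (adjusted p from 0.0626 to 0.101). Its other 2 tested probe sets did not pass. Slc44a2 read 2074, 1706 and 1895 on the control arrays and 1032, 1609.9 and 1122 on the cirrhotic arrays (log2 difference -0.61, SE 0.18, adjusted p = 0.0444). The Slc44a2 call did not hold without control array 1, 2 or 3 or cirrhotic array 1 or 3, left out singly (adjusted p from 0.0698 to 0.143). Slc27a4, a fatty acid transport protein with acyl-CoA synthetase activity, was lower on every cirrhotic array without passing (log2 difference -0.35, SE 0.14, adjusted p = 0.0968). Slc33a1, the acetyl-CoA transporter of the endoplasmic reticulum, differed by 0.16 (adjusted p = 0.38).

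Of 23 tested carriers of the inner mitochondrial membrane 19 did not pass, and the median difference was 0.12. Slc25a3, the phosphate carrier, read 2534, 2542 and 3021 on the control arrays and 3825, 3726 and 3761 on the cirrhotic arrays. All cirrhotic arrays were above all controls (log2 difference 0.48, SE 0.11, adjusted p = 0.0147). The Slc25a3 call did not hold without control array 1 or 2 or cirrhotic array 1, left out singly (adjusted p from 0.0536 to 0.0586). Slc25a22, a glutamate carrier, read 443, 437 and 391 on the control arrays and 615, 737 and 613 on the cirrhotic arrays, also higher (log2 difference 0.61, SE 0.13, adjusted p = 0.0146). The Slc25a22 call did not hold without control array 3 (adjusted p = 0.0637). Slc25a45 read 595, 694 and 605 on the control arrays and 394, 401 and 379.6 on the cirrhotic arrays, and was lower (log2 difference -0.66, SE 0.12, adjusted p = 0.00746). Slc25a33, a pyrimidine nucleotide carrier, was lower as well (log2 difference -0.70, SE 0.19, adjusted p = 0.033). The Slc25a33 call did not hold without control array 2 or 3 or cirrhotic array 1 or 3, left out singly (adjusted p from 0.0613 to 0.112). The ADP and ATP exchangers Slc25a4 and Slc25a5 differed by 0.12 and 0.25 and did not pass (adjusted p = 0.626 and 0.125), nor did Slc25a20, the carnitine and acylcarnitine carrier, at 0.42 (adjusted p = 0.156). Slc25a15, the ornithine carrier of the urea cycle, read 309.7, 296 and 163 on the control arrays and 383, 354 and 709 on the cirrhotic arrays, and Slc25a1, the citrate carrier, read 594, 516 and 453 on the control arrays and 722, 652 and 1714 on the cirrhotic arrays. Both were above the controls on all cirrhotic arrays, by far the most on array 3, and neither Slc25a15 (log2 difference 0.85, SE 0.32, adjusted p = 0.0844) nor Slc25a1 (log2 difference 0.83, SE 0.34, adjusted p = 0.11) passed. Of the 23 carriers 14 had their highest cirrhotic signal on array 3, against 35.1% of all tested genes and 38.0% of the tested members.

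Organic ion and bile acid carriers, many of them known from hepatocytes, had a median difference of -0.28, and 16 of their 34 genes were dim. Slc22a5, the sodium-coupled carnitine transporter, read 389, 483 and 379 on the control arrays and 232, 305 and 253 on the cirrhotic arrays, lower without overlap (log2 difference -0.63, SE 0.16, adjusted p = 0.0229). The Slc22a5 call did not hold without control array 1, 2 or 3 or cirrhotic array 1, left out singly (adjusted p from 0.0514 to 0.0877). Slc17a5, which exports sialic acid from lysosomes, read 276, 278 and 305 on the control arrays and 194, 203 and 202 on the cirrhotic arrays, also lower (log2 difference -0.48, SE 0.13, adjusted p = 0.0264). The Slc17a5 call did not hold without control array 1, 2 or 3 or cirrhotic array 1, left out singly (adjusted p from 0.0535 to 0.0929). Slco2a1, the prostaglandin transporter, read 129, 148 and 30.6 on the control arrays and 197, 169.7 and 274 on the cirrhotic arrays. Its cirrhotic arrays were all above the controls, of which array 3 was far below the other 2 and under the bacterial level, and the difference did not pass (log2 difference 1.12, SE 0.46, adjusted p = 0.109). Another probe set of Slco2a1, under the filter, had a difference of -0.00 (adjusted p = 0.994 without the filter). Slco2b1 and Slco3a1, organic anion transporters of several tissues, overlapped between the groups, with neither Slco2b1 (log2 difference -0.59, SE 0.33, adjusted p = 0.222) nor Slco3a1 (log2 difference -0.07, SE 0.16, adjusted p = 0.771) passing. Slc22a8, an organic anion transporter best known from the kidney, differed by -0.35 (adjusted p = 0.288), and Slc10a3 by -0.43 without overlap (adjusted p = 0.0654).

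The small classes held 1 more call. Slc66a2 read 766, 713 and 772 on the control arrays and 514, 371 and 492 on the cirrhotic arrays, lower on every cirrhotic array (log2 difference -0.70, SE 0.15, adjusted p = 0.0141). The Slc66a2 call did not hold without control array 1 (adjusted p = 0.0504) or without control array 3 (adjusted p = 0.0575). The phosphate carrier Slc20a1 read 1851, 1865 and 1859 on the control arrays and 1564, 2155 and 1351 on the cirrhotic arrays, with cirrhotic arrays on both sides of the controls (log2 difference -0.16, SE 0.17, adjusted p = 0.524). The peptide and histidine carrier Slc15a3 and the urea carrier Slc14a2 overlapped between the groups, at differences of 0.00 and -0.30.

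The hepatocyte transporters Slc10a1, Slco1a1, Slco1a4, Slco1b2, Slc22a7, Slc27a2 and Slc27a5 were picked after their values had been seen, so the order they share over the arrays is a description of these 7 genes and no result about hepatocyte carriers in general. Slc10a1, the sodium-coupled uptake carrier for bile acids, read 552, 490.4 and 351 on the control arrays and 395, 201 and 817 on the cirrhotic arrays. Slco1b2, an organic anion and bile acid carrier of the sinusoidal membrane, read 473, 344 and 166 on the control arrays and 337, 198 and 609 on the cirrhotic arrays. Slc27a5, the bile acid acyl-CoA synthetase, read 221, 139.8 and 98.7 on the control arrays and 197, 140.1 and 488 on the cirrhotic arrays. All 7 had their highest signal on cirrhotic array 3, their lowest cirrhotic signal on array 2 and their lowest control signal on array 3, and all 7 overlapped between the groups. None of the 6 that were tested passed in limma, 1 having an unadjusted p under 0.05, the nearest being Slc22a7 (log2 difference 0.94, SE 0.38, adjusted p = 0.106). Slc22a7 passed without cirrhotic array 2 (log2 difference 1.33, adjusted p = 0.0176). Their signals summed to 2459, 2129.7 and 1486 on the control arrays and 2317, 1375 and 4509 on the cirrhotic arrays. Slc38a4, known from the liver, and Slc25a15 of the urea cycle had the same order over the arrays, as their values above show. Unlike the 7, neither overlapped between the groups, and Slc38a4 was called higher. Slc2a2 and Slc38a3, also known from hepatocytes or liver, did not share this order. Slc2a2 was highest on cirrhotic array 2 and lowest of the cirrhotic arrays on array 3, as given above, and Slc38a3 read 94.5, 164 and 90.8 on the control arrays and 114, 157 and 181 on the cirrhotic arrays, lowest of the cirrhotic arrays on array 1. The hepatocyte marker sums ran as the sums of the 7 within each group only. They were 42187, 32795 and 31744 on the control arrays and 51386, 38512 and 72074 on the cirrhotic arrays. On cirrhotic array 1 the marker sum lay above all controls, while the sum of the 7 lay under control array 1. On cirrhotic array 2 the sum of the 7 was the lowest of all 6 arrays, while the marker sum was not.

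**Figure D4:**
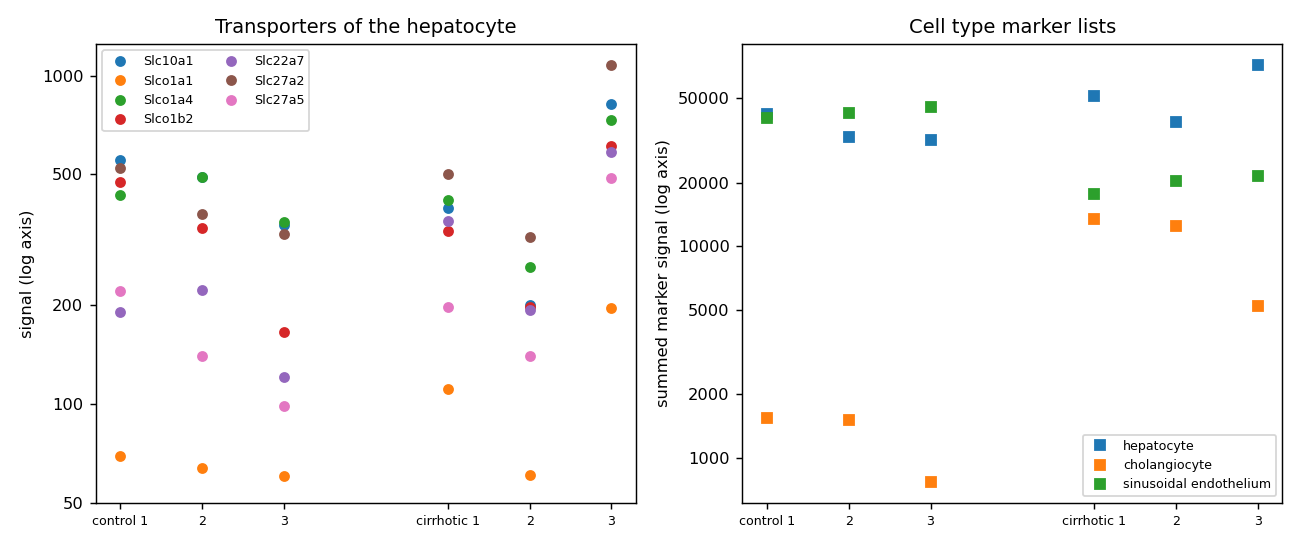
Signals on each array (log axes). The left panel shows the 7 hepatocyte transporters picked after their values were seen, 1 colour per gene, to be compared across arrays within a gene only, and the right panel the summed signals of the hepatocyte, cholangiocyte and sinusoidal endothelium markers. All 7 transporters and the hepatocyte sum are highest on cirrhotic array 3, where the cholangiocyte sum is the lowest of the cirrhotic arrays. Slc2a2, which is not plotted, has its lowest cirrhotic signal there.

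The genes called higher ran differently over the cirrhotic arrays. Of the 16 members called higher 10 had their lowest cirrhotic signal on array 3, among them Slc2a2, Slc7a1, Slc1a5, Slc16a3, Slc2a1 and Slc8a1, where 39.8% of all tested genes did. That share counts genes whether called or not. The share among all genes called higher is not given here, so the order may not be particular to these members. On that array the cholangiocyte markers summed to 5241, against 13475 and 12505 on cirrhotic arrays 1 and 2. The macrophage markers summed to 5591 there, against 12020 and 10051. Their part in these values was not tested.

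Dim members were not tested in the fit above. Of 115 dim probe sets 34 read no higher than the highest bacterial control probe set (21.7 to 49.9) on all 6 arrays, so only an upper bound was measured for them. Among all 142 untested probe sets of members, groups did not overlap for 11 with higher cirrhotic signals (7.75%, against 12.2% of all probe sets under the filter) and 13 with lower ones (9.15%, against 10.3%). Fitted without the filter, 5 of the 142 were called higher, where 5.22% of all probe sets under the filter were, and 1 lower, where 1.56% were. Slc34a2, an epithelial sodium and phosphate cotransporter, read 17.6, 28.2 and 11.7 on the control arrays and 248, 258 and 176 on the cirrhotic arrays. All 3 control arrays lay at or under the bacterial level and the cirrhotic arrays were at least 5.48-fold higher, with the control arrays set to that level (log2 difference 2.80, SE 0.25, adjusted p = 0.00105 without the filter). Slc4a4, the sodium and bicarbonate cotransporter, read 53.7, 65.3 and 38.5 on the control arrays and 203, 213 and 177 on the cirrhotic arrays, with no overlap (log2 difference 1.65, SE 0.21, adjusted p = 0.00318 without the filter). Another probe set of Slc4a4, a dim one, did not pass (log2 difference 0.08, adjusted p = 0.767 without the filter). The cholangiocyte markers rose as given above, and their part in these values was not tested.

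**Figure D5:**
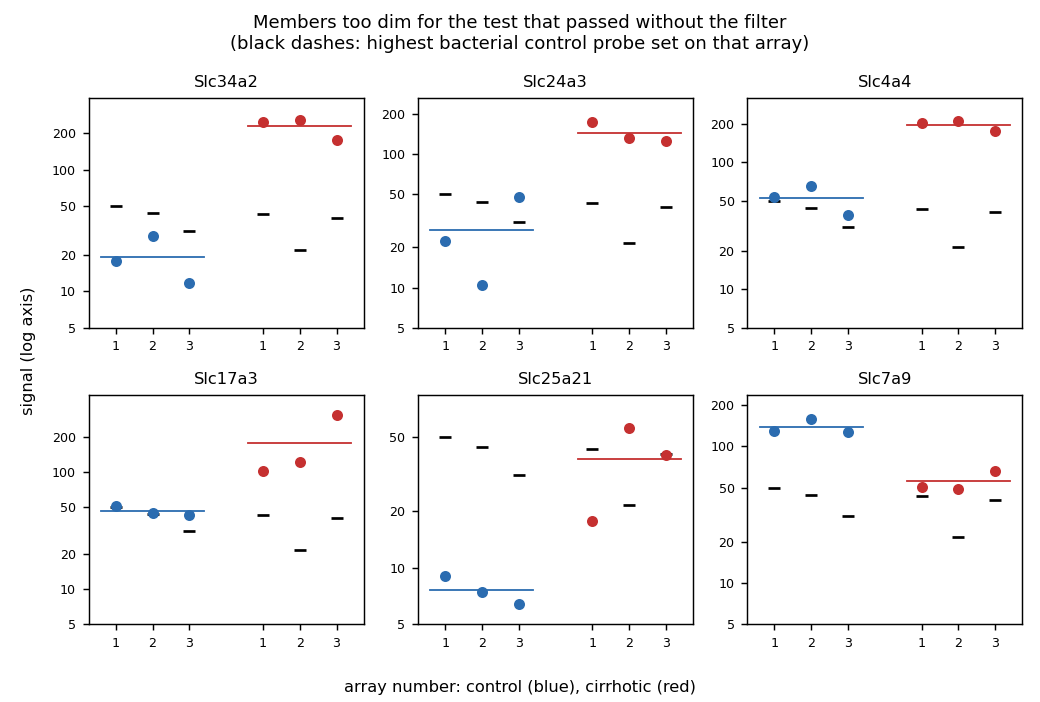
Signal on each array (log axis) of the 6 probe sets under the filter that passed when no filter was used. Blue points are control arrays, red points cirrhotic arrays, coloured lines group means and black dashes the highest bacterial control probe set of that array. The control points of Slc34a2 are all under the dashes and its cirrhotic points, 176 to 258, all above them.

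The other 4 probe sets that passed without the filter belonged to Slc17a3, Slc24a3, Slc25a21 and Slc7a9. Slc17a3, an organic anion carrier, read 50.9, 44.8 and 43.0 on the control arrays and 103, 123 and 305 on the cirrhotic arrays, highest on cirrhotic array 3 (log2 difference 1.49, SE 0.37, adjusted p = 0.0343 without the filter). Slc25a21, a mitochondrial carrier of oxodicarboxylates, read 9.1, 7.4 and 6.4 on the control arrays and 17.8, 55.9 and 40 on the cirrhotic arrays, and was at or under the bacterial level on all control arrays and 2 cirrhotic arrays, so no difference could be measured although the fit without the filter called it. Slc7a9, a light subunit that carries cystine and cationic amino acids, read 128, 159 and 126 on the control arrays and 50.8, 49.1 and 66.4 on the cirrhotic arrays, the only one of the 6 with lower cirrhotic signals (log2 difference -1.11, SE 0.19, adjusted p = 0.0101 without the filter). For Slc24a3, a sodium, calcium and potassium exchanger, the probe sets differed in direction, with values near the bacterial level. One, for which 2 of the 3 control arrays were at or under that level, read 22.2, 10.4 and 48.1 on the control arrays and 175, 133 and 125 on the cirrhotic arrays, a difference whose size is therefore uncertain although it passed without the filter, and the other, the brighter, read 118, 116 and 89.7 on the control arrays and 77.5, 77.5 and 94.6 on the cirrhotic arrays and did not pass (log2 difference -0.31, SE 0.19, adjusted p = 0.317 without the filter).

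Several members that are well known elsewhere were dim here. Slc2a3, the high-affinity glucose transporter, read 79.5, 67.8 and 78.6 on the control arrays and 145, 108 and 85.9 on the cirrhotic arrays, and Slc10a2, the bile acid uptake carrier of cholangiocytes and ileum, read 71.2, 65.1 and 41.6 on the control arrays and 136, 205 and 52.8 on the cirrhotic arrays. The cirrhotic arrays of Slc2a3 lay above its controls, while those of Slc10a2 overlapped them through array 3. Neither Slc2a3 (log2 difference 0.48, SE 0.22, adjusted p = 0.19 without the filter) nor Slc10a2 (log2 difference 0.83, SE 0.42, adjusted p = 0.231 without the filter) was called. Slc1a2, the glial glutamate transporter, read 33.2, 70.3 and 44.9 on the control arrays and 14.5, 31.4 and 31.2 on the cirrhotic arrays. Of these values 1 control and 2 cirrhotic arrays lay at or under the bacterial level, and the gene was not called without the filter. The 3 probe sets just under the limit of 100 belonged to Slc6a13, Slco1a5 and Slco1b2, with mean signals of 97.8, 98.2 and 99.7 and differences of 1.41, 0.06 and 0.23, the first with 2 control arrays at or under the bacterial level. The 3 just above it belonged to Slco4a1, Slc6a6 and Slco2a1, with mean signals of 101, 103 and 105 and differences of 0.74, 0.76 and -0.00. None of these 3, nor that of Slco1b2, is the tested probe set that stands for its gene.

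Genes that serve the carriers were read from a list of 5 groups, in which 9 of 41 tested genes passed (22.0%, against 25.5% of all tested genes). Of the sodium pump 5 genes were tested and 2 rose. Its beta subunit Atp1b1 read 301, 346 and 178 on the control arrays and 1716, 2022 and 505 on the cirrhotic arrays, and the regulator Fxyd5 read 467, 464 and 427 on the control arrays and 1495, 1635 and 879 on the cirrhotic arrays. Both Atp1b1 (log2 difference 2.12, SE 0.50, adjusted p = 0.018) and Fxyd5 (log2 difference 1.48, SE 0.23, adjusted p = 0.00358) were higher on every cirrhotic array, least so on array 3. The Atp1b1 call did not hold without control array 3 (adjusted p = 0.0733) or without cirrhotic array 1 (adjusted p = 0.0733). Of 9 tested chaperones and scaffolds, Bsg rose, as given beside the lactate carriers, and 2 fell. Nherf1, a scaffold of membrane transporters, read 1139.6, 1222 and 1175 on the control arrays and 637, 799 and 883 on the cirrhotic arrays (log2 difference -0.61, SE 0.15, adjusted p = 0.021). The Nherf1 call did not hold without control array 1, 2 or 3 or cirrhotic array 1, left out singly (adjusted p from 0.059 to 0.0712). Sgk1, a kinase that raises the surface abundance of many carriers, read 7275, 5792 and 7252 on the control arrays and 3648, 4544 and 4064 on the cirrhotic arrays (log2 difference -0.72, SE 0.13, adjusted p = 0.00609). All cirrhotic arrays of both were below all control arrays. Of 10 tested ABC transporters, the pumps driven by ATP, Abcc9, the regulatory subunit of a potassium channel, rose (log2 difference 1.68, SE 0.34, adjusted p = 0.0106) and Abcc5 fell (log2 difference -0.82, SE 0.13, adjusted p = 0.00451). Of 3 tested carbonic anhydrases, which supply bicarbonate and protons, Car2 read 170.4, 226 and 94.9 on the control arrays and 489.8, 678 and 479.8 on the cirrhotic arrays and rose (log2 difference 1.71, SE 0.29, adjusted p = 0.00498). Of 14 tested genes of the vesicular proton pump, which drives proton-coupled carriers of internal membranes, Atp6v0a1 fell (log2 difference -0.74, SE 0.14, adjusted p = 0.00762) and 13 did not pass.

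Part of the calls did not hold in fits that left out 1 array. Those fits also rest on fewer arrays, so the weight of a single array and lower precision cannot be told apart. When each array was left out in turn, 19 of the 41 calls held in all 6 fits, 7 higher and 12 lower. The difference kept its sign for all 41 genes in those 6 fits. The number of members called fell from 41 to 24 without control array 3 and to 22 without cirrhotic array 1. Over all probe sets it fell from 2421 to 1341 and to 1366 in these fits. The calls of Slc44a1, Slc44a2, Slc39a1, Slc16a1 and Slc16a3 held in 1 of the 6 fits, and that of Slc28a2 in 0. Processing also ended some calls. The fit without the filter kept 34 of the 41 and lost Slc44a2, Slc39a1, Slc25a33, Slc16a1, Slc16a3, Slc2a13 and Slc45a4, and median centring kept 38 and lost Slc44a1, Slc25a3 and Slc16a1.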

How the data were processed

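RNA of liver endothelial cells from control and cirrhotic Wistar rats was measured on 6 Affymetrix rat 230A arrays, 3 per group. The deposited values are linear intensity, 1 signal per probe set and array, which the authors had scaled so that the trimmed mean lay between 399.2 and 399.6 on every array; the software is not given in the sources used here. Median signals ran from 178.0 to 201, and 0 further value columns were found. Symbols came from the platform annotation (12783 of 15866 probe sets with 1 symbol). All 240 member genes had an entry under the same symbol in the gene table of GRCr8.

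The values were turned into log2(signal + 16). After removal of 57 control probe sets and of the dimmest 40% by mean log2 value, 9519 probe sets entered the limma fit (version 3.58.1, R 4.3.3; lmFit, eBayes with a variance trend, two-sided, Benjamini-Hochberg, threshold 0.05). The fit was tested on simulated data. Named genes are the 12 largest rises and 12 largest falls, up to 3 genes with the smallest p in each substrate class, and a list of known carriers; other called or nearly called members, and those under the filter, were named after their values were seen. Members, substrate classes, partner genes and markers were chosen with earlier results of these data known. Alternatives were the normalization, the pseudocount (1 and 64), the filter, the variance model, the choice of probe set, a block for array number, and fits lacking 1 array. The number of arrays limits the precision.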

Additional observations from a re-analysis of the deposited data

How the results depend on the processing

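All 41 called solute carrier genes kept their direction under every alternative in which they were tested. Median centring gave 13 higher and 28 lower members, and a fit without the filter 18 higher and 21 lower. Median centring added Slc29a1, Slc10a3 and Slc12a4 to the calls, and the calls these fits ended are named in the results. Quantile normalization ended that of Slc39a1 and added Slc12a4, and a fit without the variance trend ended those of Slc44a2 and Slc39a1. Leaving out 1 array at a time gave 1341 to 2472 probe sets called over the whole array (627 to 1256 higher, 694 to 1216 lower), 22 to 41 solute carrier genes (8 to 21 higher, 14 to 22 lower) and 6 to 11 partner genes. Filters at 60% or at a mean signal of 100 changed the number of members tested to 79 and 161, of which 28 and 44 were called.

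Array numbers 2 and 3 occur in both groups, and the labels do not say that they pair arrays. Deviations from the group means correlated at -0.01 for number 2 and -0.16 for number 3. With the number as a block, over these 4 arrays, 908 probe sets were called (497 higher, 411 lower), 13 solute carrier genes (7 higher, 6 lower) and 4 partner genes. Fewer arrays enter that fit, and the pairing is not established. Dim members are limited by the bacterial control level of 21.7 to 49.9.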
